A study of Mus musculus with 9 samples.

Results

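Mouse embryonic stem cells (ESCs) that carried mutations in *Rbbp4* were examined for 10 genes of the pluripotency programme. Among these are core factors, members of the developmental pluripotency associated (Dppa) family and signalling genes. The 10 were *Pou5f1*, *Sox2*, *Sall4*, *Utf1*, *Dppa2*, *Dppa3*, *Dppa4*, *Dppa5a*, *Tdgf1* and *Gdf3*. These genes were chosen by symbol, and all 10 were found among the 25239 symbols in the count tables. RBBP4 is a histone-binding WD40 protein shared by Polycomb repressive complex 2 and by the NuRD and Sin3 deacetylase complexes. RNA-seq had been done on 3 lines of 3 libraries each, all grown in serum with leukemia inhibitory factor. The control was the E14 line, Rbbp4+/+, with the strain label 12910la. The Rbbp4Ins/Ins line carried a short in-frame insertion on both alleles, and the Rbbp4Ins/Del line carried the same insertion on 1 allele and a short in-frame deletion on the other. Both mutants were made in ESCs with CRISPR-Cas9 and puromycin selection and carry the same strain label, and each is 1 clone, so that the mutation and the clone cannot be told apart. The lines are called control, Ins/Ins and Ins/Del in what follows.

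OCT4, the product of *Pou5f1*, and SOX2 bind DNA together at composite sites in ESCs and hold the self-renewing state with a wider circle of factors, among them the zinc finger protein SALL4. UTF1 is a chromatin protein of undifferentiated cells. DPPA2 and DPPA4 are SAP-domain proteins that bind each other and occupy promoters of developmental genes, and in ESCs they are needed for the genes of the 2-cell-like state, such as *Dux* and the Zscan4 family. DPPA3, also called STELLA, keeps UHRF1 from the DNA and so limits maintenance methylation, and its level is known to vary from cell to cell in serum. DPPA5A is a KH-domain RNA-binding protein. CRIPTO, the product of *Tdgf1*, is a membrane-anchored coreceptor of NODAL, and GDF3 is a ligand of the same TGF-beta family.

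The libraries held 15838064 to 21366868 counted reads. Within a line the libraries correlated at r = 0.993 to 0.994 on the log2 scale across genes, and mutant and control libraries at 0.928 to 0.942. *Rbbp4* itself measured 9932 to 10117 normalized counts in control, 5485 to 5776 in Ins/Ins and 10129 to 10603 in Ins/Del. Its log2 fold change was -0.84 (SE 0.0288, edgeR adjusted p = 1.8e-25) in Ins/Ins and 0.05 (SE 0.0279, edgeR adjusted p = 0.11) in Ins/Del, and because the mutations are small, the RNA level does not check the genotype. A normalized count is the number of reads of a gene after each library was scaled to the same effective size of 18249500 reads. The labels do not say whether the libraries of a line came from separate cultures, so the p-values measure the spread between these libraries, which may be technical.

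Promoter sequence was found for 4 of the 10 members in the RefSeq table (build GRCm38.p6), and the 250 bases before the annotated start are shown so that the start of *Utf1*, which fell in both mutants, can be read beside those of *Sox2*, *Pou5f1* and *Tdgf1*, which moved least. Capitals mark every match, on either strand, to 4 motifs: the octamer ATGCAAAT, the Sox motif ACAAAG, the GC box GGGCGG and the CCAAT box CCAAT.
Utf1, chr7:139943606-139943855, plus strand: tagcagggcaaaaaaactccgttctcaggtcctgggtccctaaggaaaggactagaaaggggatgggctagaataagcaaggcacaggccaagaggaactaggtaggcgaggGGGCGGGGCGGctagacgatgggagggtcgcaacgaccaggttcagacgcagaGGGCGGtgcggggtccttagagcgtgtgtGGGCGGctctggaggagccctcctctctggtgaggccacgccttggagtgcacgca
Sox2, chr3:34649745-34649994, plus strand: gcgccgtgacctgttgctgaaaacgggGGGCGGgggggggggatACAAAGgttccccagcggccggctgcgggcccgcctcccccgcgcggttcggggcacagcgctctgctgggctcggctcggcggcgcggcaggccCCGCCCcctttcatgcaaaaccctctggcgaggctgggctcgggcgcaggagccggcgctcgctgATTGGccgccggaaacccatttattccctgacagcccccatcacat
Pou5f1, chr17:35505782-35506031, plus strand: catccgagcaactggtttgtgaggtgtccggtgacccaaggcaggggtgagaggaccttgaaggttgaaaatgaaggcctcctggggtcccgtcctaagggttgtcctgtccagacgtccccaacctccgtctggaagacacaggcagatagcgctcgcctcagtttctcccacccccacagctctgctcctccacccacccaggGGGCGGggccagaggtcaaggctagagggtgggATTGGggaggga
Tdgf1, chr9:110946159-110946408, minus strand: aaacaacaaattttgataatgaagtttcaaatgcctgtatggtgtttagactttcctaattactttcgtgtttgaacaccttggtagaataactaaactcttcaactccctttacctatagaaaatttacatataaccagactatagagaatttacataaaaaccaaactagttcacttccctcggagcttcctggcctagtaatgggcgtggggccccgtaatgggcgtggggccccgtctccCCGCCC
The *Utf1* window held 4 GC boxes, of which the first pair overlapped by 1 base, and none of the other motifs. The *Sox2* window held 2 GC boxes, 1 Sox motif and 1 CCAAT box. The *Pou5f1* window held 1 GC box and 1 CCAAT box, and the *Tdgf1* window 1 GC box at its end next to the start. The octamer was in none of the 4. Over all 32851 promoter windows of this length, 1.6% held the octamer, 16.5% the Sox motif, 32.7% a GC box and 33.8% a CCAAT box. The RefSeq starts differ from the gene starts of the annotation whose positions are given with each gene: they lie 67 bases inside the annotated *Utf1*, 14 bases inside *Pou5f1*, 410 bases before *Sox2*, and at the same base for *Tdgf1*. These matches are letters in a window and not binding sites.

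Several of the members have processed copies elsewhere in the genome, which bears on how their reads are counted. *Dppa5a* (chr9:78367052-78368177, minus strand, GRCm38) is the clearest case, and the first 240 bases of its coding sequence are shown for that reason. The 354 coding bases run over chr9:78367239-78368099 on the minus strand, and 323 of them (91.2%) lie in a stretch of 50 bases, the read length, found in a transcript of another annotated gene. These bases are in capitals.
Dppa5a, start of the coding sequence: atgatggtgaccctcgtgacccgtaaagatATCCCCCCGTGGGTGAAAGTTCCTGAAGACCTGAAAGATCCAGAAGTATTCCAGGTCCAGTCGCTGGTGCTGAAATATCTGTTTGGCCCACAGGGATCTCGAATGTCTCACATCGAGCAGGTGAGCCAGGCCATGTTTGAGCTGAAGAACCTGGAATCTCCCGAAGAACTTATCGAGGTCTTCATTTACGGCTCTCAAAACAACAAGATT
Over the whole transcript, 38.6% of all 50-base stretches of *Dppa5a* were shared with other annotated genes. The share was 35.1% for *Dppa4*, 29.1% for *Dppa2*, 16.5% for *Dppa3* (nearly all with the pseudogene *Dppa3-ps*), 10.1% for *Pou5f1*, 9.24% for *Tdgf1* (the pseudogene *Tdgf1-ps1*), 4.59% for *Sall4* and 2.02% for *Gdf3*. *Sox2* and *Utf1* shared none. The stretches of *Pou5f1* and *Sall4* were mostly those of the opposite-strand transcripts *Gm19553* and *Gm14261*, which overlap 14.1% and 5.549% of their exonic length. Whether the counting used strand, and how it treated reads with more than 1 match, is not given in the sources used here, so the levels of the Dppa genes are the less certain ones.

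Against control, the members moved in both directions and by small amounts. In Ins/Ins, *Sox2*, *Sall4*, *Dppa2* and *Dppa5a* were higher, and *Pou5f1*, *Utf1*, *Dppa3*, *Dppa4* and *Gdf3* were lower. In Ins/Del, *Sall4*, *Dppa2* and *Dppa5a* were higher, and *Utf1*, *Dppa3*, *Dppa4* and *Gdf3* were lower. The only member past 2-fold was *Dppa3* in Ins/Del, 2.31-fold lower. A gene was called at an adjusted p of at most 0.01 in edgeR's quasi-likelihood test, fitted on the 14125 genes with enough reads, and all 10 members were among them.

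The count of 9 of 10 members called in Ins/Ins stands beside 58.4% of all tested genes called in that comparison, and beside 63.9% of the 7687 tested genes with a mean at or above that of the lowest member. In Ins/Del, 7 of 10 were called, beside 62.5% of all tested genes and 67.3% of those at or above that mean. The members were thus called about as often as those genes in Ins/Del. Of the members called, 4 of 9 were higher in Ins/Ins and 3 of 7 in Ins/Del, where 29% and 30.6% of all tested genes were called higher and 29.4% and 31.9% lower. Changes past 2-fold made up 16% and 18.6% of all tested genes, and none of the members in Ins/Ins and 1 in Ins/Del. The median size of the log2 fold change, without its sign, was 0.24 for the members and 0.30 for all tested genes in Ins/Ins, and 0.29 and 0.34 in Ins/Del. For tested genes with a mean at or above that of the lowest member it was 0.20 in Ins/Ins and 0.23 in Ins/Del. The medians of the members lay above these. The libraries did not overlap control for 10 of 10 members in Ins/Ins and 8 of 10 in Ins/Del, beside 69.1% and 72.8% of all tested genes. Both comparisons use the same 3 control libraries.

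**Figure D1:**
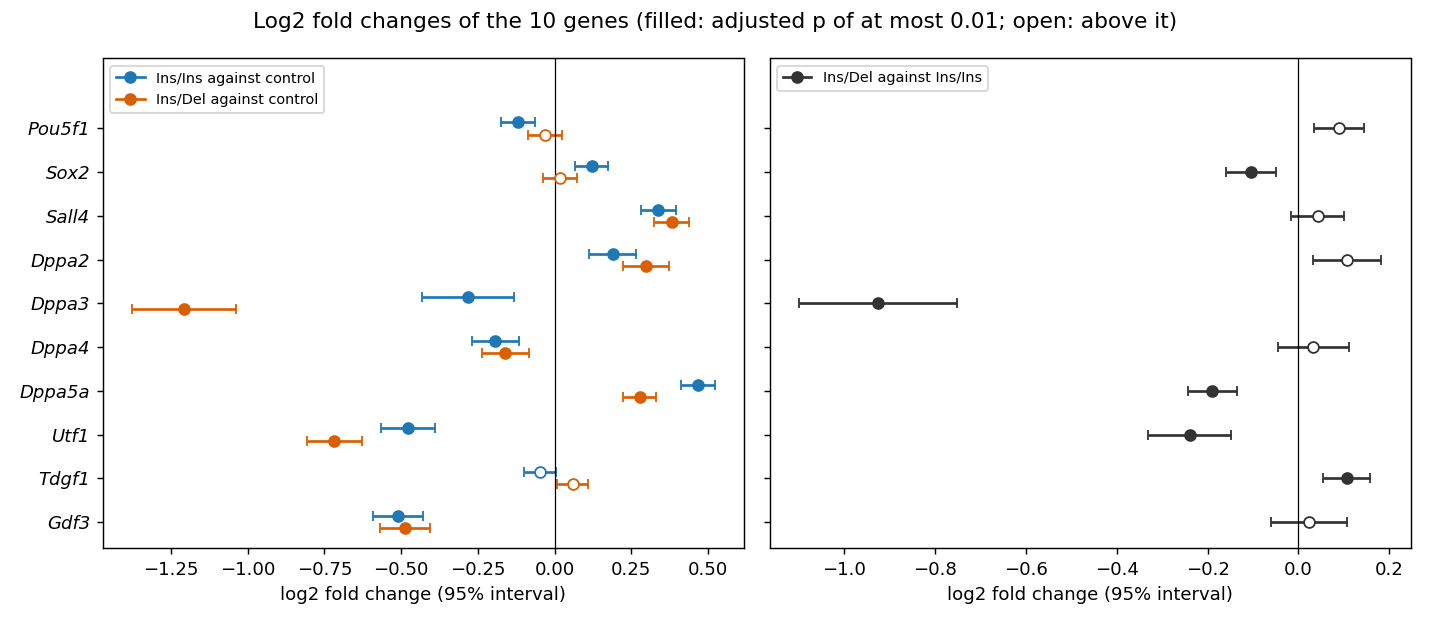
Log2 fold change of the 10 members with 95% intervals, each mutant line against control on the left and Ins/Del against Ins/Ins on the right; filled points passed the adjusted p limit of 0.01 and open points did not. Dppa3 in Ins/Del lies farthest from 0, at -1.21, and Utf1, Gdf3, Sall4 and Dppa5a moved the same way in both mutants.

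**Figure D2:**
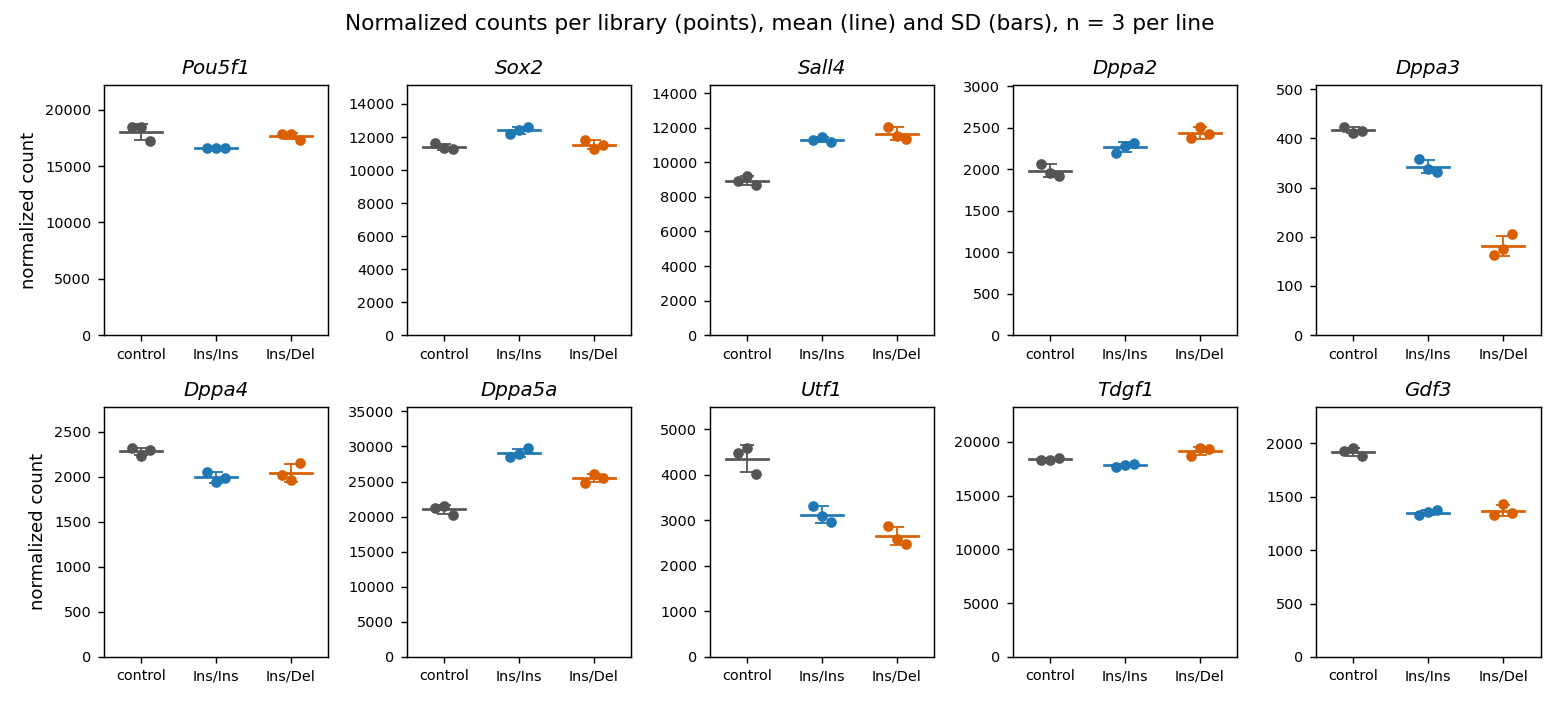
Normalized count of each member in each of the 9 libraries, 1 panel a gene on its own axis, with a bar at the mean of each line and the SD over its 3 libraries. The Dppa3 libraries of Ins/Del, 164 to 205, lie below all libraries of the other lines, while the Tdgf1 libraries of the 3 lines lie close together.

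Among the core transcription factors, the pair at the centre moved least. *Pou5f1* (chr17:35506018-35510772, plus strand) measured 18507, 18437 and 17233 normalized counts in control, 16649.5, 16589 and 16606 in Ins/Ins and 17849, 17819 and 17337 in Ins/Del. Every Ins/Ins library lay below every control library, whereas those of Ins/Del lay among the controls. The log2 fold change was -0.12 (SE 0.0274, edgeR adjusted p = 2e-04) in Ins/Ins, or 1.09-fold lower, and -0.03 (SE 0.0274, edgeR adjusted p = 0.3) in Ins/Del, with a 95% interval of -0.09 to 0.02. For *Sox2* (chr3:34650405-34652461, plus strand), whose single exon codes for the partner of OCT4, the control libraries held 11609.8, 11339 and 11247, the Ins/Ins libraries 12161, 12396 and 12629 and the Ins/Del libraries 11812, 11291 and 11504. The Ins/Ins libraries were the highest, and Ins/Del again overlapped control. *Sox2* differed from control by 0.12 (SE 0.0272, edgeR adjusted p = 0.00019) in Ins/Ins and by 0.02 (SE 0.0273, edgeR adjusted p = 0.59) in Ins/Del, with an interval of -0.04 to 0.07. In Ins/Ins the 2 genes thus changed in opposite directions by the same amount, 1.09-fold down and 1.09-fold up.

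*Sall4* (chr2:168748332-168767943, minus strand), which codes for a zinc finger factor whose N-terminal peptide binds RBBP4 and thereby NuRD, was the core factor that rose in both mutants. It measured 8945, 9216 and 8683 normalized counts in control, 11319, 11471 and 11159 in Ins/Ins and 12071, 11521 and 11364 in Ins/Del. Neither mutant overlapped control, and the mutants overlapped each other. The log2 fold change was 0.34 (SE 0.0288, edgeR adjusted p = 3.4e-13) in Ins/Ins and 0.38 (SE 0.0288, edgeR adjusted p = 9.4e-15) in Ins/Del, or 1.26-fold and 1.3-fold higher. *Utf1* (chr7:139943789-139945112, plus strand), the chromatin protein gene with the run of GC boxes shown above, went the other way. Its control libraries held 4470.4, 4577 and 4014, its Ins/Ins libraries 3314, 3095 and 2962 and its Ins/Del libraries 2868, 2589 and 2488. The 3 lines did not overlap and stood from high to low in the order control, Ins/Ins, Ins/Del. Its log2 fold change was -0.48 (SE 0.0432, edgeR adjusted p = 1.8e-12) in Ins/Ins and -0.72 (SE 0.044, edgeR adjusted p = 1.7e-17) in Ins/Del, that is 1.39-fold and 1.64-fold lower.

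*Dppa2* and *Dppa4* lie next to each other on chromosome 16 and code for proteins that work as a pair, but their RNA moved apart. *Dppa2* (chr16:48303908-48319723, plus strand) measured 2065, 1959 and 1914 normalized counts in control, 2197, 2281 and 2311 in Ins/Ins and 2372, 2513 and 2419 in Ins/Del. All mutant libraries were above all control libraries, with log2 fold changes of 0.19 (SE 0.0376, edgeR adjusted p = 3.2e-05) in Ins/Ins and 0.30 (SE 0.0374, edgeR adjusted p = 5.7e-09) in Ins/Del. *Dppa4* (chr16:48283733-48294237, plus strand) measured 2314, 2233 and 2293 in control, 2056, 1939.8 and 1984 in Ins/Ins and 2015, 1962 and 2156 in Ins/Del. All mutant libraries were below all control libraries here, with log2 fold changes of -0.19 (SE 0.038, edgeR adjusted p = 3e-05) in Ins/Ins and -0.16 (SE 0.038, edgeR adjusted p = 3e-04) in Ins/Del. The ratio of *Dppa2* to *Dppa4* reads within a library, which does not depend on the scaling, was 0.893, 0.877 and 0.835 in control, 1.07, 1.18 and 1.16 in Ins/Ins and 1.18, 1.28 and 1.12 in Ins/Del. It was below 1 in every control library and above 1 in every mutant library. With 29.1% and 35.1% of their 50-base stretches shared with processed copies, both levels are uncertain.

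*Dppa3* (chr6:122626410-122630272, plus strand) showed the largest change of the 10 genes in Ins/Del, a smaller one in Ins/Ins, and the largest difference between the mutants. Its control libraries held 424, 412 and 415 normalized counts, its Ins/Ins libraries 358, 337 and 332 and its Ins/Del libraries 164, 176 and 205. The lines did not overlap, and the Ins/Del libraries stood well below both others. Against control the log2 fold change was -0.28 (SE 0.0743, edgeR adjusted p = 0.0011) in Ins/Ins and -1.21 (SE 0.0834, edgeR adjusted p = 6.5e-16) in Ins/Del, or 1.22-fold and 2.31-fold lower. *Dppa3* had the lowest normalized counts of the members, and its coefficient of variation was 1.55% in control, 3.94% in Ins/Ins and 11.7% in Ins/Del. In bulk RNA, fewer cells with *Dppa3* RNA and less of it in each cell cannot be told apart.

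*Dppa5a* was the most abundant member and rose in both mutants. The control libraries held 21260.2, 21540.1 and 20289 normalized counts, the Ins/Ins libraries 28524, 28946 and 29731 and the Ins/Del libraries 24845, 26063 and 25542. The lines did not overlap, and Ins/Ins was the highest. Its log2 fold change was 0.47 (SE 0.027, edgeR adjusted p = 3.6e-18) in Ins/Ins and 0.28 (SE 0.027, edgeR adjusted p = 1.1e-11) in Ins/Del, or 1.38-fold and 1.21-fold higher. Its share of 50-base stretches found in other annotated genes, 38.6%, was the largest of the 10, so this level is among the less certain ones.

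Of the signalling members, the ligand fell in both mutants and the coreceptor was called in neither. *Gdf3* (chr6:122605403-122610087, minus strand) measured 1933, 1954 and 1883 normalized counts in control, 1325, 1359.8 and 1372 in Ins/Ins and 1330.0, 1432 and 1353 in Ins/Del. The mutant libraries overlapped each other and lay well below control. Its log2 fold change was -0.51 (SE 0.04, edgeR adjusted p = 3.6e-14) in Ins/Ins and -0.49 (SE 0.04, edgeR adjusted p = 1.1e-13) in Ins/Del, or 1.42-fold and 1.4-fold lower. *Tdgf1* (chr9:110939603-110946158, minus strand) measured 18316, 18308 and 18532 in control, 17625, 17816 and 17956 in Ins/Ins and 18697, 19386 and 19374 in Ins/Del. Its coefficient of variation, pooled over the 3 lines, was 1.36%, and although neither mutant overlapped control, the steps were small. They came to -0.05 (SE 0.0255, edgeR adjusted p = 0.1) in Ins/Ins and 0.06 (SE 0.0254, edgeR adjusted p = 0.037) in Ins/Del, and neither was called. The 95% intervals were -0.10 to 0.00 and 0.01 to 0.11. The second was called with DESeq2 in place of edgeR (adjusted p = 0.0051).

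The direct comparison of the mutant lines, Ins/Del against Ins/Ins, called 5 of 10 members, beside 10.8% of all tested genes. The share was 15.2% for those with a mean at or above that of the lowest member, a set not matched to the members' levels. *Tdgf1* was higher in Ins/Del, and *Dppa3*, *Utf1*, *Dppa5a* and *Sox2* were lower, where 6.17% of all tested genes were called higher and 4.64% lower. No member was past 2-fold, beside 0.361% of all tested genes, and for 7 of 10 members the libraries of the mutants did not overlap, beside 34.1%. The differences were -0.93 (SE 0.0862, edgeR adjusted p = 1.8e-10) for *Dppa3* and -0.24 (SE 0.0451, edgeR adjusted p = 0.00014) for *Utf1*, so that both fell further in Ins/Del than in Ins/Ins. For *Dppa5a* the difference was -0.19 (SE 0.0269, edgeR adjusted p = 1.4e-06), a smaller rise in Ins/Del. *Sox2* and *Tdgf1* gave the smallest calls, -0.10 (SE 0.0272, edgeR adjusted p = 0.0057) and 0.11 (SE 0.0255, edgeR adjusted p = 0.0025). *Sall4*, *Gdf3* and *Dppa4* showed differences of 0.04, 0.02 and 0.03, with 95% intervals of -0.02 to 0.10, -0.06 to 0.11 and -0.05 to 0.11. *Dppa2* and *Pou5f1* were higher in Ins/Del by 0.11 (SE 0.037, edgeR adjusted p = 0.036) and 0.09 (SE 0.0274, edgeR adjusted p = 0.019) but missed the limit.

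The smaller of these calls depended on single libraries or on the scaling. *Sox2* lost its call with the size factors of DESeq2 and without Ins/Ins replicate 2 or 3 or Ins/Del replicate 2 or 3, and *Tdgf1* without Ins/Ins replicate 1 or Ins/Del replicate 2 or 3. *Utf1* lost its call only in the DESeq2 test (adjusted p = 0.029). *Pou5f1* gained a call with the size factors of DESeq2, in the DESeq2 test, in a fit of only the 2 lines compared, and without control replicate 3. Without Ins/Del replicate 2, and likewise without replicate 3, the count of members called was 3 in place of 5. The calls of *Dppa3* and *Dppa5a* were kept under all 15 alternatives.

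Per kilobase of exonic length, on normalized counts, *Dppa5a* stood far above the other members in control, at 33974. *Pou5f1* (8033), *Tdgf1* (7182) and *Sox2* (5541) formed the next level, followed by *Utf1* (3548), *Sall4* (1712) and *Dppa4* (1542). *Gdf3* (905), *Dppa2* (809) and *Dppa3* (467) were the lowest. No neighbours in this order overlapped in their libraries. In Ins/Ins, *Dppa2* (925) stood above *Gdf3* (636), and in Ins/Del this exchange was joined by *Sall4* (2229.7) and *Utf1* (2158), whose libraries overlapped. The other ranks were those of control. Together the members made up 0.477% to 0.501% of all reads in control, 0.525% to 0.528% in Ins/Ins and 0.512% to 0.518% in Ins/Del. Without *Dppa5a*, the members summed to 66213 to 68585 normalized counts in control. The sums were then 67004 to 67310 in Ins/Ins and 68199.5 to 69178 in Ins/Del, and both overlapped control. The spread of the members within lines had a median coefficient of variation of 2.68%. It was 3.87% for tested genes with a mean at or above that of the lowest member, *Dppa3*, at 314. The other members had means of 1549 or more, so that set is not matched to their levels.

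**Figure D3:**
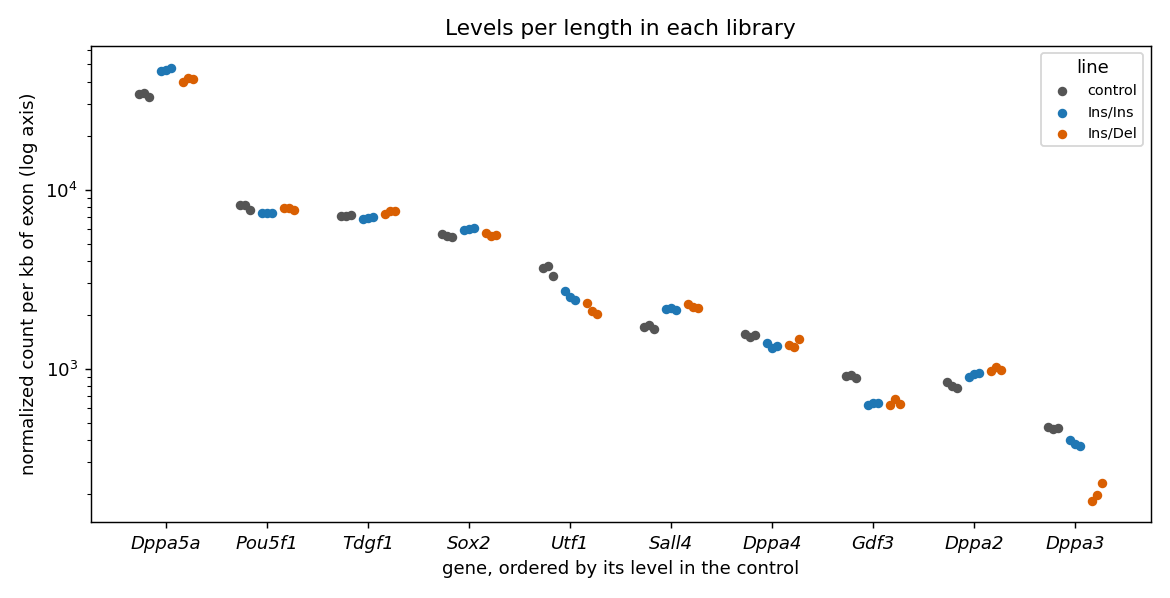
Normalized counts per kilobase of exonic length on a log axis, for each member in each library of the 3 lines. The order runs from Dppa5a to Dppa3 in all lines, with Gdf3 below Dppa2 in both mutants and the points of Sall4 and Utf1 meeting in Ins/Del.

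*Dppa3* and *Gdf3*, and likewise *Dppa2* and *Dppa4*, lie close together in the genome, and direction was not shared along either locus. On chromosome 6, *Gdf3* starts 16.3 kb before *Dppa3*, and *Nanog*, another core pluripotency factor, starts 81.1 kb after it. *Gdf3* and *Dppa3* fell, whereas *Nanog* rose by 0.41 in Ins/Ins and 0.43 in Ins/Del on the log2 scale. Farther on, the glucose transporter gene *Slc2a3* fell with log2 fold changes of -0.98 and -1.15 and the forkhead gene *Foxj2* fell with -0.51 and -0.45, all called. *Apobec1*, a cytidine deaminase gene 24 kb on the other side, had 0.10 in Ins/Ins, not called, and rose by 0.41 in Ins/Del. The difference between the mutants was 0.30 (SE 0.127, edgeR adjusted p = 0.092). The call in Ins/Del was lost with DESeq2 and without control replicate 1, Ins/Del replicate 1 or Ins/Del replicate 3, and that of *Foxj2* in Ins/Del without Ins/Del replicate 2. On chromosome 16, where *Dppa2* starts 20.2 kb after *Dppa4*, the germ-cell gene *Morc1*, 147.5 kb after *Dppa4*, rose by 1.55 and 1.82.

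**Figure D4:**
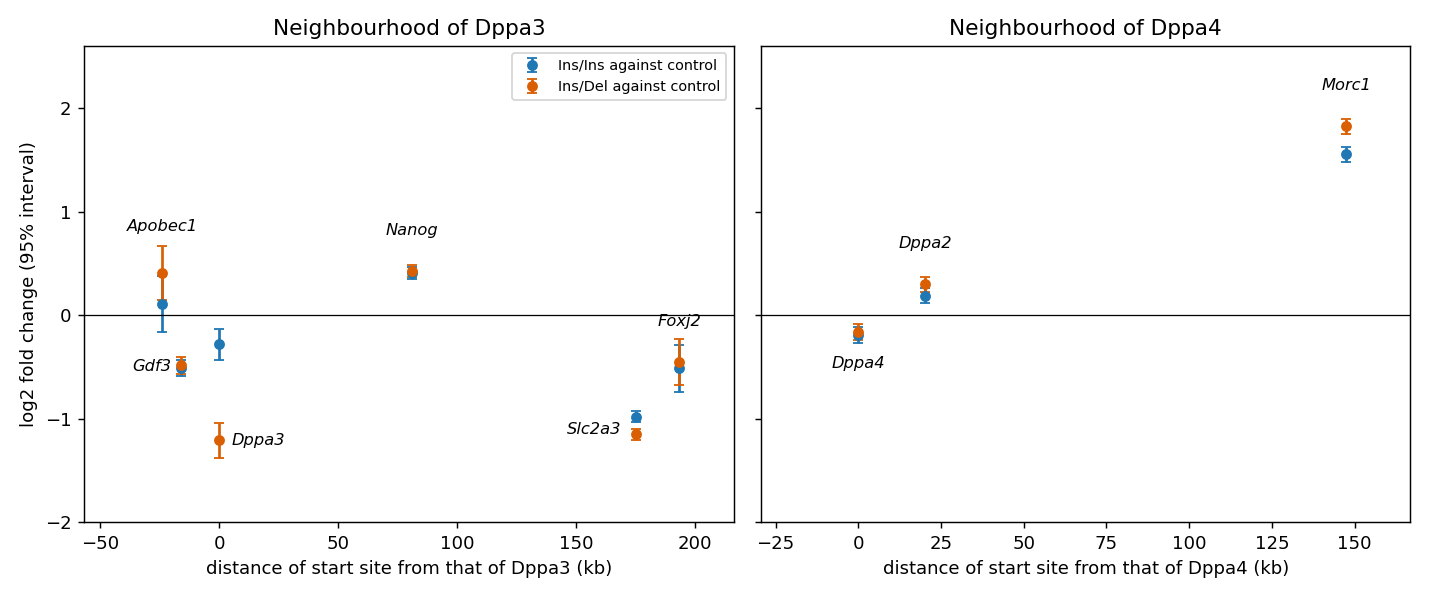
Log2 fold change against control, with 95% intervals, of the genes around Dppa3 (left) and Dppa4 (right), placed by the distance of their start sites in kilobases. Nanog lies above 0 between Dppa3 and Slc2a3, which lie below it, and Dppa2 and Dppa4 lie on opposite sides of 0.

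The pathway that *Tdgf1* and *Gdf3* belong to was read from 19 further genes, of which 16 were tested. Changes of these and of the lists that follow are log2 fold changes against control. In Ins/Ins 5 were higher and 8 lower, and in Ins/Del 5 higher and 10 lower, beside 58.4% and 62.5% of all tested genes called in these comparisons. The medians were -0.19 and -0.23, beside 0.00 and -0.01 over all tested genes. Among the ligands, *Inhbb*, an activin subunit, rose by 1.12 in Ins/Ins and 1.28 in Ins/Del. *Inhba*, the other activin subunit, held 35 to 44 reads in each control library, 0 to 1 in Ins/Ins and 1 to 4 in Ins/Del. The convertase gene *Pcsk6* rose by 0.76 and 1.16. *Furin*, another convertase gene of the list, went the other way with log2 fold changes of -0.70 and -0.92, both called. It was below 2-fold and is named after its values were seen. Among the inhibitors, *Fst*, which codes for the activin antagonist follistatin, fell with log2 fold changes of -1.40 and -1.01. Below 2-fold, and chosen after their values were seen, *Nodal* rose by 0.53 and 0.83, while its inhibitor and target *Lefty1* fell with log2 fold changes of -0.74 and -0.95 and *Lefty2* rose by 0.23 and 0.20. Some of the small calls were lost under other settings: that of *Smad3* in Ins/Ins with DESeq2 and without control replicate 1 or Ins/Ins replicate 1 or 3, and in Ins/Del without control replicate 1 or Ins/Del replicate 2. In Ins/Del, *Acvr2a* lost its call with DESeq2 and without control replicate 1 or 3 or Ins/Del replicate 3, and *Smad2* with DESeq2, in a fit of the 2 lines compared, and without control replicate 3 or Ins/Del replicate 2 or 3.

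The DNA methylation genes that DPPA3 works with or against were 8, all tested. In Ins/Ins 4 were higher and 3 lower, and in Ins/Del 5 higher and 3 lower, beside 58.4% and 62.5% of all tested genes called. The medians were 0.10 and 0.12. The de novo methyltransferase genes fell, *Dnmt3a* with log2 fold changes of -1.65 in Ins/Ins and -1.31 in Ins/Del and *Dnmt3b* with -1.27 and -1.19. *Dnmt3l*, which codes for their cofactor without activity of its own, rose by 0.88 and 1.24. *Uhrf1*, which codes for the protein that DPPA3 keeps from the DNA, is named after its value was seen. It rose by 0.16 and 0.12. *Tet1* was called higher in Ins/Del (0.11), though its libraries overlapped control. This call was lost with DESeq2, with total-count scaling, and without control replicate 1 or 2 or Ins/Del replicate 1.

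**Figure D5:**
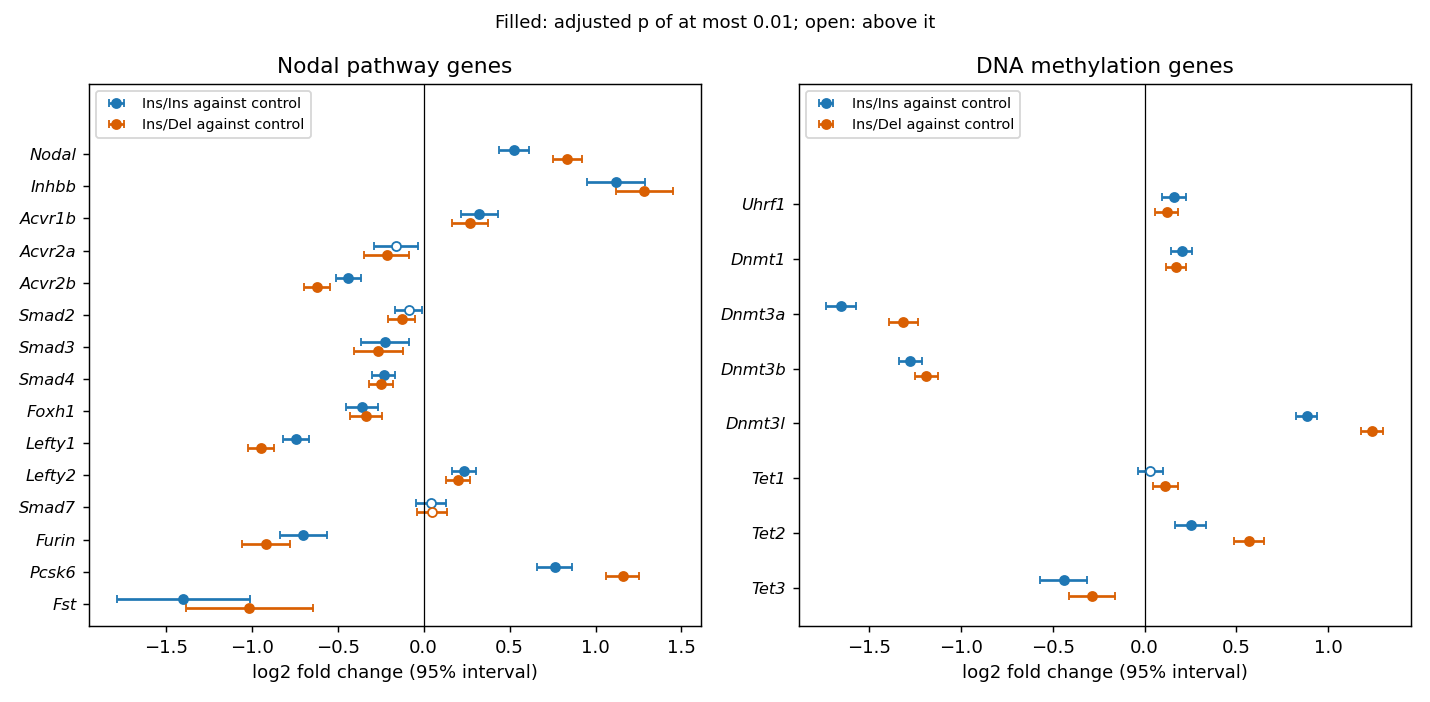
Log2 fold change against control with 95% intervals, of the tested genes of the Nodal pathway (left) and of DNA methylation (right), 1 point for each mutant line, filled where the adjusted p was at most 0.01. Inhba, with at most 4 reads in every mutant library, is left out; Fst lies lowest on the left, and Dnmt3a and Dnmt3b lie below 0 on the right where Dnmt3l lies above it.

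Of 9 genes of the 2-cell-like state that depend on DPPA2 and DPPA4, 8 were in the tables and 7 were tested. In Ins/Ins all 7 were higher and past 2-fold. Over all tested genes, 29% were called higher in Ins/Ins and 30.6% in Ins/Del. Those called and past 2-fold, in either direction, made up 16% and 18.6%. In Ins/Del 6 were higher, and *Dux*, which codes for the homeobox activator of this state, missed the limit at 1.07. The medians were 1.33 and 1.87. The smallest rise called was that of *Dux* in Ins/Ins, 1.10, and the largest that of *Tcstv3*, 1.83 in Ins/Ins and 2.41 in Ins/Del. *Zscan4c*, *Zscan4d* and *Zscan4f* rose by 1.52, 1.16 and 1.33 in Ins/Ins and by 1.93, 1.77 and 1.91 in Ins/Del. *Zfp352* and *Tdpoz4* rose by 1.48 and 1.19 in Ins/Ins and by 1.87 and 1.68 in Ins/Del. Their summed level was 827 to 863 normalized counts in control, 2096 to 2143 in Ins/Ins and 2981 to 3159 in Ins/Del. Most of these genes belong to near-identical multicopy families, so how reads were split between copies is uncertain, and the call of *Dux* in Ins/Ins was lost with DESeq2, without a filter on low counts, and without any 1 of the libraries other than control replicate 1. In Ins/Del *Dux* gained a call with the size factors of DESeq2, in a fit of the 2 lines compared and without control replicate 1.

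Some paralogs of the core factors changed by more than any member did. Of 12, 11 were tested. In Ins/Ins 2 were higher and 6 lower and in Ins/Del 3 higher and 7 lower, beside 58.4% and 62.5% of all tested genes called. The medians were -0.54 and -0.46. *Sall2*, a relative of *Sall4*, fell by 4.78 in Ins/Ins and its log2 fold change in Ins/Del was -5.09. *Pou3f1*, a POU factor of the epiblast and neural lineage, fell as well, with -3.33 and -3.68. The SOX2 relatives *Sox3* and *Sox21*, both neural, fell with log2 fold changes of -1.92 and -1.82 in Ins/Ins and -1.57 and -2.01 in Ins/Del. *Sox1*, a further SOX2 relative that is also on the neuroectoderm list below, was called in neither mutant. It had -0.09 in Ins/Ins and 0.27 in Ins/Del. *Sall3* fell with log2 fold changes of -1.05 and -0.66. *Pou2f3* rose by 1.92 and 2.54. The Ins/Del calls of *Pou6f1* and *Sox15* were lost with DESeq2 and without control replicate 1 or Ins/Del replicate 2. That of *Sox15* was also lost without Ins/Del replicate 1.

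The other markers of ESC identity, 12 in all, were mostly higher: 9 rose and 1 fell in each mutant, with medians of 0.55 in Ins/Ins and 0.51 in Ins/Del. Over all tested genes, 29% were called higher and 29.4% lower in Ins/Ins, and 30.6% and 31.9% in Ins/Del. *Tbx3* rose most, by 1.91 and 2.12, and *Zfp42* by 0.90 and 1.06. *Tfcp2l1*, *Klf4*, *Nr0b1*, *Esrrb* and *Fbxo15* rose by 0.55 to 0.87 in Ins/Ins and by 0.47 to 0.81 in Ins/Del. *Lin28a*, whose protein binds RNA and restrains the maturation of let-7, fell with log2 fold changes of -1.43 and -1.55. *Prdm14* rose in Ins/Ins (0.44) and had 0.19 in Ins/Del, *Nr5a2* had 0.04 and rose in Ins/Del by 0.14, and *Klf2* had 0.06 and 0.03. Between the mutants *Prdm14* and *Nr5a2* had uncalled differences of -0.24 and 0.10 (edgeR adjusted p = 0.012 and 0.11). The call of *Nr5a2* was lost with DESeq2, with total-count scaling, without a filter on low counts, and without control replicate 1 or 3 or Ins/Del replicate 1 or 2. Their summed level of 54322 to 56246 normalized counts in control, 70692 to 70882 in Ins/Ins and 70415 to 73486 in Ins/Del, and the high OCT4 and SOX2 transcripts, match the ESC label of all 3 lines.

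Markers of other cell types moved along with the members, and their part in these results was not tested. Beside the counts of markers called, 58.4% of all tested genes were called in Ins/Ins and 62.5% in Ins/Del. About equal shares were higher and lower: 29% and 29.4% in Ins/Ins, and 30.6% and 31.9% in Ins/Del. Neuroectoderm markers (3 of 6 lower in each mutant, 4 tested) summed to 2945 to 2992 normalized counts in control, 526 to 552 in Ins/Ins and 481 to 502 in Ins/Del. Without *Nes*, which made up most of the sum in control, they summed to 1174 to 1258, 299 to 322 and 262 to 318. *Nes*, *Map2* and *Pax6* fell, with log2 fold changes of -2.93, -1.82 and -3.19 in Ins/Ins and -3.08, -2.08 and -4.50 in Ins/Del. *Sox1*, the other tested gene of this list, was called in neither mutant. It had -0.09 (edgeR adjusted p = 0.51) in Ins/Ins and 0.27 (edgeR adjusted p = 0.034) in Ins/Del, where its libraries lay above control. *Pax3*, which was not tested, had 10 to 13 reads in each control library and 0 to 1 in each mutant library. Fibroblast markers (4 of 6 lower, *Thy1* higher) summed to 611 to 717, 273 to 301 and 354 to 384, and without *Thy1*, the one with the highest mean level, to 564 to 670.4, 42.9 to 47.9 and 51.1 to 58.6. The collagen genes *Col1a1* and *Col1a2* fell, with -4.04 and -5.28 in Ins/Ins and -3.55 and -4.76 in Ins/Del, *Col3a1* went from 28 to 35 reads in each control library to at most 2 in each mutant library, and *Pdgfrb* fell with log2 fold changes of -1.28 and -1.23. *Thy1* rose by 2.43 and 2.77.

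In the 3 other marker lists a single gene made up most of the sum in every line, so the sums are also given without it, an alternative chosen after seeing the data. Primitive endoderm markers summed to 1405 to 1609.8 in control, 1098 to 1214 in Ins/Ins (1 of 8 higher, 3 lower) and 1681 to 1803 in Ins/Del (5 higher, 2 lower). Without *Col4a1*, a basement membrane collagen gene, the sums were 371 to 399, 210.4 to 271 and 316 to 346, so that Ins/Del then lay below control. *Dab2* made up most of this smaller sum in control, at 252 to 272 normalized counts, and held 106 to 111 in Ins/Del. *Gata6*, *Sox17*, *Sox7* and *Pdgfra* were called higher in Ins/Del, so the lower sum does not describe most of the list. *Col4a1* itself had log2 fold changes of -0.31 in Ins/Ins and 0.31 in Ins/Del, both called. *Sox7* rose by 1.63 and 2.22, while *Gata4* and *Dab2* fell with log2 fold changes of -1.56 and -1.35 in Ins/Ins and -1.05 and -1.29 in Ins/Del. *Gata6* and *Sox17* rose in Ins/Del by 1.14 and 1.15, where they had 0.31 and 0.61 in Ins/Ins without a call. Between the mutants the differences were 0.83 (SE 0.273, edgeR adjusted p = 0.029) for *Gata6* and 0.54 (SE 0.359, edgeR adjusted p = 0.32) for *Sox17*. The call of *Sox17* was lost with DESeq2, with total-count scaling, without a filter on low counts, and without any 1 of the control libraries, Ins/Ins replicate 3 or Ins/Del replicate 1 or 2, and that of *Gata4* in Ins/Del without control replicate 2. *Pdgfra* (0.89 in Ins/Del) lost its call there with DESeq2 and without control replicate 2. Mesendoderm markers summed to 277 to 313, 381 to 411 and 372 to 389.9 (1 of 6 higher and 1 lower in Ins/Ins, 2 higher and 1 lower in Ins/Del). The rise of this sum was that of *Eomes* (0.74 and 0.49), and without it the sums were 88.9 to 123, 72.2 to 79.5 and 96.1 to 116. *T* went from 40 to 52 reads in each control library to at most 3 in each mutant library. *Kdr* rose in Ins/Del by 1.06 and had 0.28 in Ins/Ins, and the difference between the mutants was 0.78 (SE 0.159, edgeR adjusted p = 0.00044). Trophectoderm markers summed to 1489.7 to 1547, 1848 to 1956 and 1150.1 to 1229, with 1 of 6 higher and 3 lower in Ins/Ins and 4 lower in Ins/Del. The higher gene was *Tfap2c* (0.48 in Ins/Ins and -0.21 in Ins/Del, both called), without which the sums were 249.6 to 266, 118 to 149 and 90 to 135, lower in both mutants. *Cdx2* went from 27 to 36 reads in each control library to 1 to 4 in each mutant library, and *Krt7* fell with -0.84 in Ins/Ins and -1.58 in Ins/Del. *Gata3* fell in Ins/Ins (-0.90) and had -0.46 in Ins/Del, and *Hand1* fell in Ins/Del (-1.07) and had -0.53 in Ins/Ins; the differences between the mutants were 0.44 and -0.54 (edgeR adjusted p = 0.19 and 0.34). The call of *Hand1* was lost with DESeq2 and without control replicate 1 or 2 or Ins/Del replicate 1 or 2.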

How the data were processed

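RNA-seq counts per gene were deposited by the authors for 9 libraries, 3 of each line. Per the labels and methods, mRNA libraries were sequenced as 50-base paired ends, aligned to mm10 with STAR 2.7.3 and counted with HTSeq, and the study called genes with DESeq2 1.22.2. The annotation, HTSeq version and strand setting are not given in the sources used here. The deposited counts are whole reads with no normalization.

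Counts of all 9 libraries were normalized with TMM and fitted in edgeR 4.0.16 (R 4.3.3, limma 3.58.1) by quasi-likelihood with 1 mean per line. Of 25239 symbols, 20953 had a read and 14125 passed filterByExpr. The 3 comparisons of lines were tested with Benjamini-Hochberg adjustment over these 14125 genes, at an adjusted p of at most 0.01. Log2 fold changes carry a standard error and a 95% interval from the same fit. DESeq2 1.42.0 served as an alternative. No 2 libraries agreed within sampling noise (chi-square per gene 1.87 to 4.62). Fits were tested on simulated data. Coordinates and exonic lengths come from GENCODE M21 (GRCm38, the build of mm10), and promoters from RefSeq.

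The members and lists were chosen with earlier results of these data known. All members are named. Genes of the other lists are named where called and past 2-fold in either mutant, or as neighbours or ESC markers, and for each member the 2 most correlated genes with a mean count of at least 100. Some others are named, for example where a call or sign changed under another setting. A further gene of the Nodal pathway was taken out of its list and of the list's counts and is not reported here.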

Additional observations from a re-analysis of the deposited data

Results flagged for a closer look

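The members that differed between the mutant lines themselves, in the direct test of Ins/Del against Ins/Ins (edgeR, adjusted p of at most 0.01), were 5. On the log2 scale, the difference Ins/Del minus Ins/Ins was -0.93 for *Dppa3*, -0.24 for *Utf1*, -0.19 for *Dppa5a*, -0.10 for *Sox2* and 0.11 for *Tdgf1*. For *Dppa3* and *Dppa5a*, and not for the other 3, the call was kept under all 15 alternatives. Each mutant line is 1 clone, so a difference between the mutations and one between clones cannot be told apart.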

How the results depend on the processing

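For each member and comparison 15 alternatives were run: the size factors of DESeq2 and total-count scaling in place of TMM, no filter on low counts, DESeq2's test, a fit of only the 2 lines compared, the replicate number as a block, and leaving out each of the 9 libraries. Of these 450 values, 434 kept their direction and their side of the threshold, 9 lost a call, 5 gained one and 2 changed sign. The 2 were uncalled differences between the mutants near 0: leaving out 1 library gave -0.011 (without Ins/Del replicate 2) to 0.046 for *Gdf3* and -0.0053 (without Ins/Del replicate 3) to 0.062 for *Dppa4*. Counts of members called, with a looser limit of 0.05 as a further alternative, stayed at 9 in Ins/Ins and between 7 and 8 in Ins/Del. For Ins/Del against Ins/Ins they lay between 3 and 7, with 3 to 6 when 1 library was left out and 7 at the looser limit. Scaling moved the median of all genes by less than 0.1 (log2) throughout.

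The lines share replicate numbers. Over the 9 same-numbered pairs the correlation of deviations from the line means was -0.024 to 0.060, none over 0.1. For pairs of other numbers it was -0.057 to 0.058. Of the 9 libraries, 5 matched best with their own number. These values show no clear pairing by number, but with so few libraries they cannot exclude a weak one. With the replicate number as a block, 9, 7 and 5 members were called, as without it, and no member's call changed.

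The genes of the other lists were put through the same alternatives, a choice made after seeing the data: of 2488 values against control, 2407 kept direction and side, 66 lost a call, 5 gained one and 10 changed sign, all of uncalled genes. All were in fits without 1 library, whose values ran from -0.00084 to 0.098 for *Tet1*, -0.024 to 0.21 for *Apobec1* and -0.25 to 0.093 for *Pdgfra* in Ins/Ins, and from -0.013 to 0.090 for *Klf2* and -0.17 to 0.51 for *Mixl1* in Ins/Del. The cause of these shifts was not tested. Depth limits the members little, since the lowest had a mean normalized count of 314, but genes with few reads, such as *Dux*, *Sox17* and *Hand1*, lost calls under several alternatives.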

Other observations

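The genes whose pattern over the 9 libraries was most like that of each member were taken from 10206 other genes with a mean normalized count of at least 100, by Pearson's r of log2 normalized counts. The libraries fall into 3 lines, so that r mainly follows the 3 line means, and no p is given. For the core factors they were *Epha2* (r = 0.944) and *Peli2* (r = 0.935) for *Pou5f1*, *Polr3c* (r = 0.954) and *Kit* (r = 0.947) for *Sox2*, *Tyw3* (r = 0.997) and *Mpzl1* (r = 0.996) for *Sall4* and *Sox13* (r = 0.992) and *Zbtb8a* (r = 0.992) for *Utf1*. For the Dppa genes they were *Psma2* (r = 0.997) and *Sar1b* (r = 0.993) for *Dppa2*, *Macroh2a1* (r = 0.985) and *Igbp1* (r = 0.982) for *Dppa3*, *Tsg101* (r = 0.977) and *Bex3* (r = 0.97) for *Dppa4* and *Dnajb1* (r = 0.992) and *B3glct* (r = 0.991) for *Dppa5a*. For the signalling members they were *Wdr47* (r = 0.97) and *Kdm4c* (r = 0.968) for *Tdgf1* and *Apex1* (r = 0.996) and *Tdh* (r = 0.996) for *Gdf3*. The values for *Pou5f1* and *Sox2* were the lowest.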
